A study of Mus musculus with 6 samples.

Results

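The major histocompatibility complex (MHC) genes and their antigen-processing partners were described in whole colon of Tnfrsf1a-/- and wild-type mice. The set held every gene whose symbol in the deposited table begins with H2-, plus Cd74, B2m, Ciita, Tap1, Tap2, Tapbp and Nlrc5. These were 52 of 30330 genes with a value. They comprised 2 classical class I genes, 26 non-classical class I genes, 4 class I partners, 4 classical class II genes, 6 class II partners, 2 trans-activators and 8 other H2- symbols, mostly pseudogenes. Of the non-classical genes, GENCODE M21 annotates H2-Q3 as a pseudogene and H2-Q5, H2-T10 and H2-Bl as polymorphic pseudogenes. Polyadenylated RNA was sequenced from the colons of 3 Tnfrsf1a-/- mice, which by their label lack the TNF receptor TNFR1 and are called knockout here, and of 3 wild-type mice. All were 12-week-old males with the strain label C57Bl/6J in both genotypes, and no treatment is given. The labels describe a plain -/- genotype with no Cre or tissue restriction, and do not say whether knockout and wild-type mice were littermates. Levels are TPM, a transcript's share of its library corrected for transcript length, so they can be compared between genes; the read count behind a value is unknown.

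Wild-type replicate 2 stood apart, since 27.4% of its TPM lay in transcripts without a gene name, against 1.86% to 7.23% in the 3 knockout libraries and 2.79% to 4.05% in the other 2 wild-type libraries. All its other levels are lowered by this, so differences are given for unscaled TPM and, where named, for TPM under median-of-ratios scaling, which divides each library by the median ratio of its genes to their geometric mean. The full-length Tnfrsf1a transcript had 20.4 to 25.6 TPM in knockout and 39.9 to 67.6 TPM in wild type, and did not overlap between the groups. Summed over all its transcripts, Tnfrsf1a had 36.5 to 49.2 TPM in knockout and 44.1 to 71.2 TPM in wild type, with overlap, so it was lower on average but not absent in knockout. These values alone do not establish the genotype, and the labels do not say which part of the gene the allele removes. Markers of colonic epithelium were abundant, with Krt8, a keratin of simple epithelia, at 3806 ± 161 TPM in knockout and 3646 ± 632 TPM in wild type (SD, n = 3 each). In RNA of a whole organ, fewer cells of a type and less RNA per cell cannot be told apart.

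MHC class I molecules sit on almost all nucleated cells, where a heavy chain paired with beta-2 microglobulin (B2m) shows peptides from the cell interior to CD8 T cells. The peptides are cut by the proteasome, pumped into the endoplasmic reticulum by the transporter Tap1 and Tap2, and loaded with the help of tapasin (Tapbp). Class II molecules are made mainly by B cells, dendritic cells and macrophages, and under interferon-gamma also by gut epithelium. Their alpha and beta chains assemble on the invariant chain Cd74, and in endosomes H2-DM exchanges the last piece of Cd74 for antigen, a step that H2-DO restrains. Nlrc5 and Ciita are the trans-activators of class I and class II promoters. TNF acts on class I genes in many cells through NF-kappaB and an element in their promoters.

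The promoter stretches of the genes with the highest class I levels are shown because they carry the DNA elements through which TNF and interferon signals are known to reach class I genes. They are RefSeq sequences on GRCm38.p6, the mm10 assembly, written 5′ to 3′ on the strand of the gene. Capitals mark the kappaB letters GGGATTCCC, the interferon-response letters TTTCNNTT and the Y box letters ATTGG, each on either strand. Other forms of the kappaB letters were not searched for or marked. The lack of marked kappaB letters in H2-T23 and B2m therefore does not show that they lack a kappaB element.
H2-K1: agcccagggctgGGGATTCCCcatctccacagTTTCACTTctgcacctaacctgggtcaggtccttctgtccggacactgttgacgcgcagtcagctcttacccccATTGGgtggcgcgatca
H2-D1: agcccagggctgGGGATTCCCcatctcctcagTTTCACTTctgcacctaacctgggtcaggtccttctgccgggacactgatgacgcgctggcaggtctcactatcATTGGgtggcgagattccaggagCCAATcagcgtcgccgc
H2-T23: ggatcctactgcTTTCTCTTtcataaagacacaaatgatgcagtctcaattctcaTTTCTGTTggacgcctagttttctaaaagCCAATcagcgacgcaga
B2m: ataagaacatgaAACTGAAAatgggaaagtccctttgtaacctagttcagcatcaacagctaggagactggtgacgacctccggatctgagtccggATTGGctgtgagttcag

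The H2-K1 stretch lies at chr17:34000347-34000469 on the minus strand and the H2-D1 stretch at chr17:35262912-35263057 on the plus strand. The H2-T23 stretch is chr17:36032737-36032837 on the minus strand, and that of B2m chr2:122147538-122147650 on the plus strand. The kappaB letters start at -110 in H2-K1 and at -170 in H2-D1, counted from the annotated transcription start. Of 32851 RefSeq promoter windows, each running from 250 bases before to 50 bases after a start, 116 (0.353%) held GGGATTCCC. Of 35 member genes with a window in the RefSeq table, H2-K1, H2-D1, H2-Q6 and H2-Q7 held this exact form. The other letters were common, with TTTCNNTT in 23.9% and ATTGG in 37.4% of all windows, so their presence says little about a single gene. A match is a description of letters and not a measured binding site.

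For class II genes, the letters shown are the core of the X box, GCAAC, followed by the Y box, ATTGG, the pair on which the Ciita-dependent promoter complex assembles. They are shown because some genes with high and some with low class II levels below share them.
H2-Aa: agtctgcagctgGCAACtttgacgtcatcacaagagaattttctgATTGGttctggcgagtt
H2-Eb1: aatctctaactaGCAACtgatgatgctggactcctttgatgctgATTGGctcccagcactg
H2-Eb2: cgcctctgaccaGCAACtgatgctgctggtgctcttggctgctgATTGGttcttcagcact
H2-Ob: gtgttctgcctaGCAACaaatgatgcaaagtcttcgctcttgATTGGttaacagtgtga
H2-Oa: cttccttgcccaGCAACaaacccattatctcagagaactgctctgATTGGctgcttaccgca

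These stretches lie at chr17:34287855-34287916 on the minus strand for H2-Aa, and on the plus strand at chr17:34305764-34305824 for H2-Eb1, chr17:34325531-34325591 for H2-Eb2, chr17:34238806-34238864 for H2-Ob and chr17:34092291-34092352 for H2-Oa. The 2 sets of letters in this order on the gene's strand, 10 to 40 bases apart, were found in 230 of the 32851 windows (0.7%). H2-Aa, H2-Eb1, H2-Eb2, H2-Oa and H2-Ob were the 5 member genes that held the pair, among the 35 with a window. H2-DMa, H2-DMb1 and H2-DMb2 had a window without the pair, and H2-Ab1 had no window.

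The comparison of knockout with wild type asks whether colon without TNFR1 differs in antigen-presentation transcripts. No member passed the test. Of the 52 genes, 35 averaged 1 TPM or more across all 6 libraries and were tested with limma on log2(TPM + 0.5), a scale that understates the change of low genes. None of the 35 had a Benjamini-Hochberg adjusted p below 0.05, where 0.267% of all 14248 genes tested did. At an unadjusted p below 0.05, 3 members were lower in knockout (H2-Ob, H2-DMb2 and H2-Eb2) and 0 were higher, against 1.97% of all genes lower and 1.72% higher. Under median-of-ratios scaling 0 members passed the adjusted threshold, where 0.0421% of all genes did, and 3 had an unadjusted p below 0.05, all lower, where 5.74% of all genes did. Of the 35 log2 fold changes, 12 were positive and 23 negative, with a median of -0.10 beside 0.02 for all genes tested. That median was 0.10 without knockout replicate 2, 0.03 without wild-type replicate 3 and -0.37 without knockout replicate 3, so its sign rests on single libraries.

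**Figure D1:**
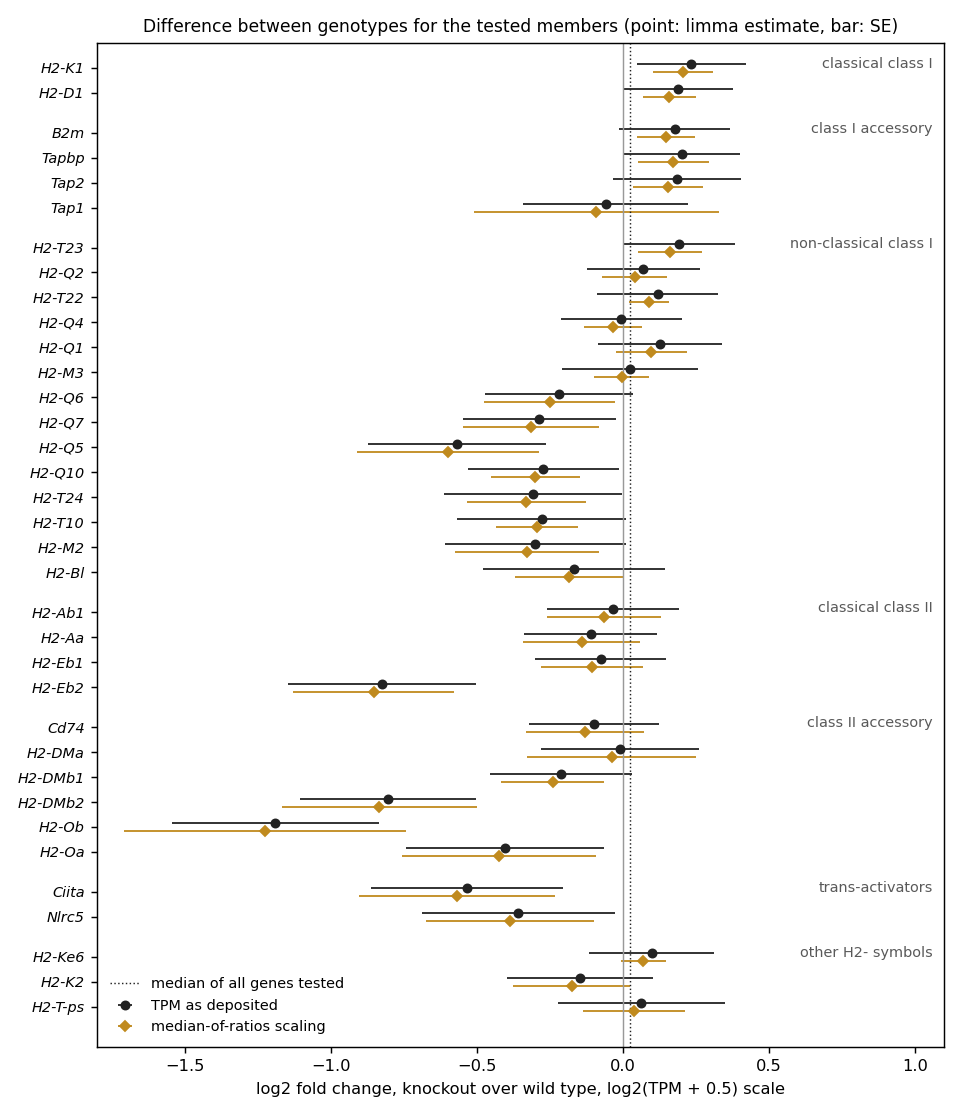
Log2 fold change of knockout over wild type on the log2(TPM + 0.5) scale for the 35 tested members, with the standard error from limma, for unscaled TPM (circles) and under median-of-ratios scaling (diamonds). Classical class I genes and most of their partners lie right of 0, and H2-Ob, H2-DMb2 and H2-Eb2 lie farthest to the left; none passed an adjusted p of 0.05.

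Classical class I chains were among the most abundant transcripts of the colon, and their mean levels were somewhat higher in knockout without passing the test. The size depended on the scaling: with TPM rescaled over transcripts that have a gene name, the log2 fold changes were 0.10 for H2-K1, 0.06 for H2-D1 and 0.05 for B2m. H2-K1, which encodes the H-2K heavy chain, ranked 172 of 30330 genes by mean TPM, B2m ranked 197 and H2-D1, the H-2D heavy chain, ranked 291. H2-K1 had 899, 762 and 923 TPM in knockout replicates 1 to 3, against 732, 658 and 807 TPM in wild-type replicates 1 to 3. Of the knockout libraries replicate 2 was inside the span of wild type, and the other 2 knockout libraries lay above all wild-type ones. The log2 fold change was 0.23 with an SE of 0.19 (adjusted p = 0.9999 by limma) unscaled, and 0.20 (adjusted p = 0.492) under scaling.

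H2-D1 had 434, 407 and 479 TPM in knockout libraries and 405, 341 and 412 TPM in wild-type libraries. Here too the groups overlapped only through knockout replicate 2, and the log2 fold change was 0.19 with an SE of 0.19 (adjusted p = 0.9999 by limma). The 2 heavy chains kept a nearly fixed proportion. H2-K1 per H2-D1 was 2.07, 1.87 and 1.93 in knockout and 1.81, 1.93 and 1.96 in wild type. Reads of these genes are partly shared, since 24.2% of the 31-base words of H2-K1 transcripts, the unit by which kallisto matches reads, also occur in transcripts of other genes, and 26.9% of those of H2-D1.

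B2m, the light chain common to all class I molecules, had 658, 633 and 807 TPM in knockout and 673, 533 and 650 TPM in wild type. Knockout replicate 3 was the highest of the 6 libraries and wild-type replicate 2 the lowest, and the other 4 were interleaved. None of the 31-base words of B2m occurs in another gene. The sum of both heavy chains per B2m was 2.03, 1.85 and 1.74 in knockout and 1.69, 1.88 and 1.88 in wild type, with overlapping ranges.

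The peptide loading partners were highest in the same mouse. Tapbp, the tapasin that holds empty class I molecules at the transporter, had 131, 121 and 168 TPM in knockout and 128, 109 and 124 TPM in wild type. Tap2 had 23.02, 18.4 and 27.6 TPM in knockout and 20.9, 17.8 and 21.3 TPM in wild type. Tap1, the other chain of the transporter, varied more, at 14.4, 9.84 and 28.4 TPM in knockout and 12.6, 22.96 and 16.0 TPM in wild type. Knockout replicate 3 had the highest level of all 4 class I partners, and wild-type replicate 2, the lowest library for B2m, Tapbp and Tap2, was second for Tap1. No partner passed the test (log2 fold changes from -0.06 for Tap1 to 0.20 for Tapbp, limma adjusted p = 0.9999 for each).

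**Figure D2:**
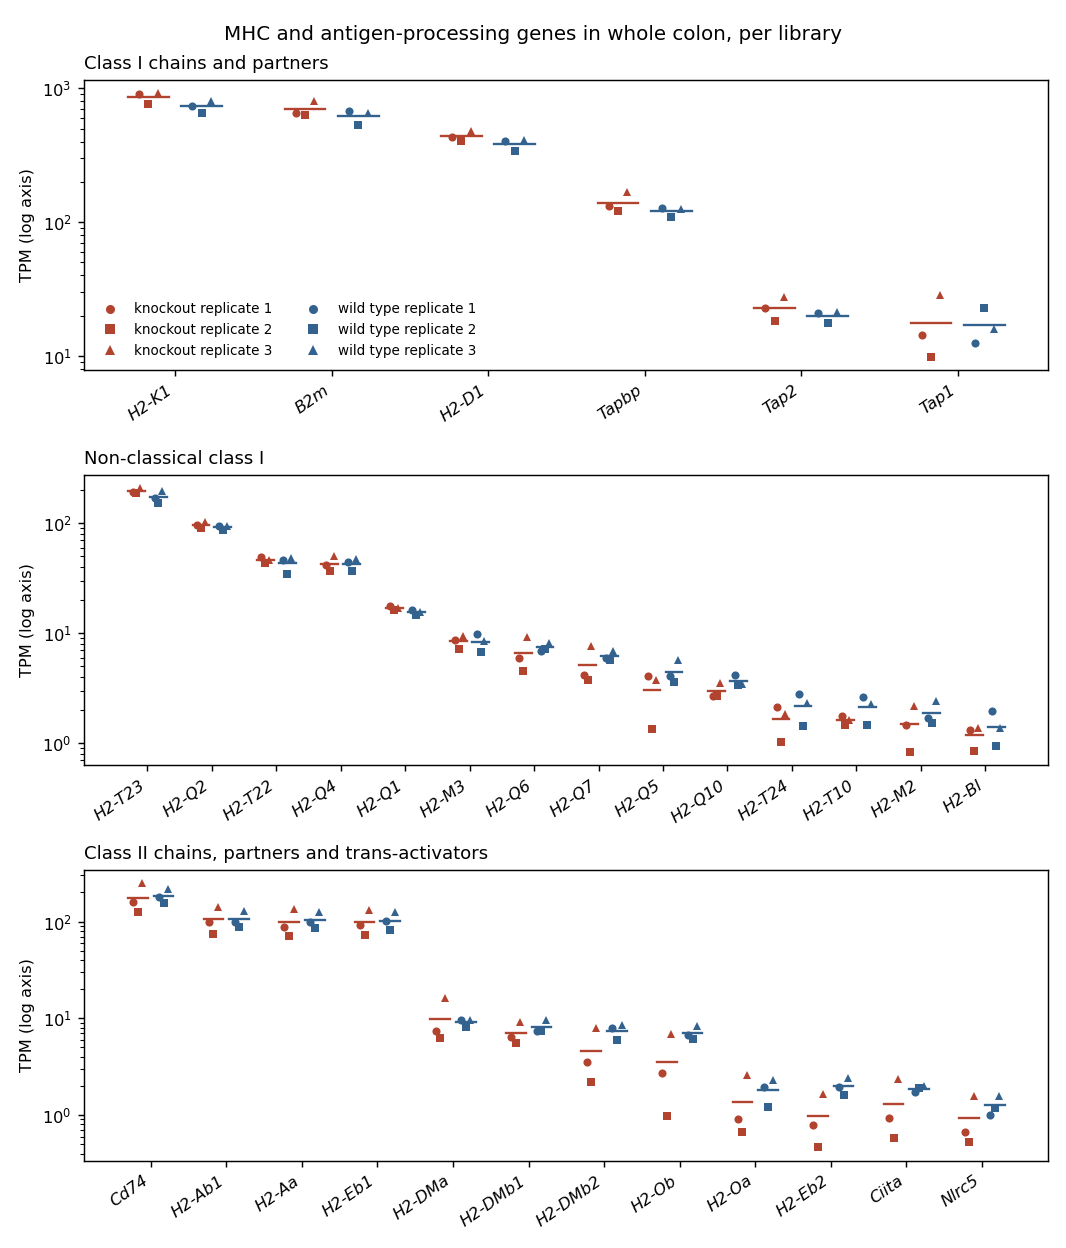
TPM of named members in each library on a log axis, with knockout (red) left of wild type (blue), a symbol for each replicate number and a line at the group mean. H2-K1, B2m and H2-D1 lie above the other class I genes in all 6 libraries, while in the lowest panel knockout replicates 1 and 2 lie below replicate 3 for each gene.

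Non-classical class I genes divided by level. The abundant ones had log2 fold changes between -0.01 and 0.19. H2-T23, which encodes Qa-1, the ligand of the NK cell receptor CD94/NKG2A, was the highest at 195, 188 and 210 TPM in knockout and 169, 154 and 198 TPM in wild type. Its groups overlapped through 1 wild-type library, and the log2 fold change was 0.19 with an SE of 0.19 (adjusted p = 0.9999 by limma). H2-Q2 had 97.3 ± 6.31 TPM in knockout and 92.7 ± 4.88 TPM in wild type (SD, n = 3 each). H2-T22, a ligand of some gamma-delta T cells, had 46.6 ± 3.37 TPM in knockout and 43.2 ± 7.16 TPM in wild type. H2-Q4 had 42.8 ± 6.71 and 42.9 ± 5.32 TPM in knockout and wild type.

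Among the 35 tested members, H2-Q1 alone had groups that did not overlap. It had 17.8, 16.4 and 16.8 TPM in knockout and 16.1, 14.7 and 15.8 TPM in wild type, a log2 fold change of 0.13 with an SE of 0.21 (adjusted p = 0.9999 by limma). Of all genes tested, 3.17% had groups without overlap and higher in knockout and 1.82% lower, so 1 of 35 is near the background. H2-M3, which presents N-formylated peptides of bacteria and mitochondria, had 8.75, 7.14 and 9.41 TPM in knockout and 9.79, 6.75 and 8.43 TPM in wild type, a fully mixed order.

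The low non-classical genes had negative log2 fold changes. H2-Q6, H2-Q7, H2-Q5, H2-Q10, H2-T24, H2-T10, H2-M2 and H2-Bl, all with a mean between 1 and 8 TPM, ran from -0.57 for H2-Q5 to -0.17 for H2-Bl, and H2-Q4 made the ninth negative value of 14. H2-Q5 had 4.08, 1.33 and 3.77 TPM in knockout and 4.07, 3.60 and 5.74 TPM in wild type, and knockout replicate 2 was the lowest library (limma unadjusted p = 0.0735). H2-Q7, the main gene of the Qa-2 antigen, had 4.14, 3.71 and 7.68 TPM in knockout and 5.90, 5.66 and 6.87 TPM in wild type. H2-Q10, a secreted class I molecule known from liver, had 2.66, 2.69 and 3.54 TPM in knockout and 4.15, 3.38 and 3.48 TPM in wild type. In both, knockout replicates 1 and 2 lay below all wild-type libraries, while replicate 3 lay above them for H2-Q7 and among them for H2-Q10.

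The Q and T genes are close copies of each other. From 39.2% (H2-Q7) to 57.8% (H2-Q5) of the words of H2-Q4, H2-Q5, H2-Q6 and H2-Q7 occur in other genes, and 64.2% and 67.4% of those of H2-T10 and H2-T22, so their separate levels are uncertain. The non-classical median log2 fold change was -0.19 over 14 tested members, but -0.0079 without knockout replicate 2, -0.05 without wild-type replicate 1, and 0.05 over the 8 members with a mean of at least 5 TPM.

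Of the 12 non-classical genes below 1 TPM on average, H2-T3 alone exceeded 1 TPM in any library. H2-T3, the thymus leukaemia antigen bound by CD8 alpha homodimers, had 0.80, 0.14 and 0.45 TPM in knockout and 0.36, 1.05 and 0.32 TPM in wild type. H2-Q3, annotated as a pseudogene, had 0.195, 0.158 and 0.0967 TPM in knockout and 0.863, 0.279 and 0.325 TPM in wild type, so its groups did not overlap. H2-M10.2, at 0 TPM in knockout and at most 0.0899 TPM in wild type, did not overlap either. Both were named after their values were seen and were not tested. No background share was taken for genes this low. Over all classes 17 members were below the filter and 8 of them were listed at 0 in every library. These 8 were H2-Ea-ps, H2-M1, H2-M10.3, H2-M10.4, H2-M10.5, H2-M10.5-ps1, H2-M11 and H2-Pb. H2-Ea is known to be silent in mice of the C57BL/6 haplotype, which therefore make no E alpha chain. The 3 other H2- symbols that were tested were H2-Ke6, a steroid dehydrogenase gene that only shares the prefix, and the pseudogenes H2-K2 and H2-T-ps, at log2 fold changes of 0.10, -0.15 and 0.06.

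The classical class II chains were present at about 100 TPM in both genotypes and varied more among knockout mice than between genotypes. H2-Ab1, the A beta chain, had 98.5, 73.7 and 143 TPM in knockout and 99.8, 87.1 and 128 TPM in wild type. Knockout replicate 2 was the lowest and knockout replicate 3 the highest of the 6 libraries, with the wild-type libraries between. H2-Aa, the A alpha chain, had 88.5, 70.1 and 135 TPM in knockout and 97.7, 85.6 and 127 TPM in wild type. H2-Eb1, the E beta chain, had 92.8, 71.7 and 131 TPM in knockout and 101, 80.9 and 125 TPM in wild type. All 3 had the same lowest and the same highest library, and their log2 fold changes were -0.04, -0.11 and -0.08 (limma adjusted p = 0.9999 for each).

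Cd74, the invariant chain, followed the chains it chaperones, at 158, 125 and 248 TPM in knockout and 178, 157 and 216 TPM in wild type, a log2 fold change of -0.10 with an SE of 0.22 (adjusted p = 0.9999 by limma). Per H2-Ab1 it was 1.60, 1.70 and 1.74 in knockout and 1.79, 1.80 and 1.68 in wild type. H2-Aa per H2-Ab1 was 0.899, 0.951 and 0.948 in knockout and 0.980, 0.983 and 0.987 in wild type, so the ranges did not overlap, with the nearest values at 0.951 and 0.980. Ratios were chosen after the values were seen and are given with no test.

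H2-Eb2, a second E beta gene, was far lower and had one of the 3 largest differences. It had 0.78, 0.46 and 1.67 TPM in knockout and 1.96, 1.60 and 2.39 TPM in wild type. The group means were 0.97 and 1.98 TPM, so it met the 1 TPM filter only through wild type. Knockout replicates 1 and 2 lay below every wild-type library, and knockout replicate 3 lay just above the lowest of them. The log2 fold change was -0.83 (SE 0.32, limma unadjusted p = 0.0162, adjusted p = 0.867), and -0.85 (adjusted p = 0.376) after scaling.

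The class II partners ranged from no difference to the largest one among the members. All 6 were lowest in knockout replicate 2, as were all 4 classical class II genes and both trans-activators, and all 6 log2 fold changes were negative (median -0.31). The median was -0.10 without knockout replicate 2, -0.17 without wild-type replicate 3 and -0.62 without knockout replicate 3. H2-Ob, the beta chain of H2-DO, which restrains H2-DM chiefly in B cells, had 2.75, 0.97 and 6.88 TPM in knockout and 6.71, 6.04 and 8.38 TPM in wild type. Knockout replicate 3 fell inside the wild-type range, and the other 2 knockout libraries lay well below it. The log2 fold change was -1.19 (SE 0.355, limma unadjusted p = 0.0023, adjusted p = 0.270), the smallest p among the members, and -1.23 (adjusted p = 0.430) after scaling.

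The call on H2-Ob depended on single mice. With knockout replicate 3 left out the log2 fold change was -1.78 (adjusted p = 1e-05 by limma), and with knockout replicate 2 left out it was -0.61 (unadjusted p = 0.0367). It also passed the threshold without knockout replicate 1 (-1.18, adjusted p = 0.0245) or wild-type replicate 1 (-1.22, adjusted p = 0.00572). Of all genes tested, 1.47% passed without knockout replicate 3, 1.2% without knockout replicate 2, 1.42% without knockout replicate 1, 2.15% without wild-type replicate 1, 0.133% without wild-type replicate 2 and 0.779% without wild-type replicate 3. Across libraries H2-Ob ran over an 8.67-fold range, beside a median of 1.60-fold for all genes tested and 1.40-fold for H2-K1. H2-Oa, the alpha chain of H2-DO, had 0.90, 0.67 and 2.57 TPM in knockout and 1.93, 1.21 and 2.30 TPM in wild type, with a log2 fold change of -0.40 with an SE of 0.34 (adjusted p = 0.9999 by limma). In both chains knockout replicates 1 and 2 lay below all wild-type libraries.

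**Figure D3:**
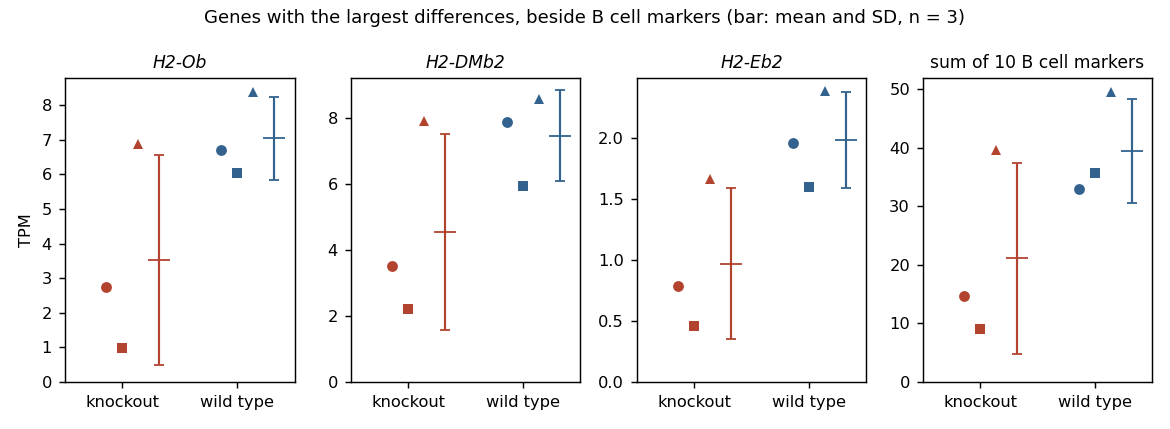
TPM of H2-Ob, H2-DMb2 and H2-Eb2 and the summed TPM of 10 B cell markers, knockout left of wild type, with a symbol per replicate and the mean and SD (n = 3) beside it. In all 4 panels knockout replicates 1 and 2 lie below the 3 wild-type libraries, and replicate 3 lies among them.

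Relative to H2-Ab1 in the same library, H2-Ob was 0.0279, 0.0131 and 0.0483 in knockout and 0.0672, 0.0693 and 0.0654 in wild type. The 3 wild-type ratios were close together and all 3 knockout ratios were lower. H2-Eb2 per H2-Eb1 behaved likewise, at 0.0084, 0.0064 and 0.0127 in knockout and 0.0193, 0.0198 and 0.0191 in wild type. Both ratios were chosen after the values were seen, and no background share of ratios without overlap was taken. In TPM both genes overlapped between the groups, with knockout replicate 3 at 6.88 for H2-Ob and 1.67 for H2-Eb2. That library also had the highest H2-Ab1 (143 TPM) and H2-Eb1 (131 TPM). H2-Oa per H2-Ab1 was 0.0092, 0.0091 and 0.0180 in knockout and 0.0193, 0.0139 and 0.0179 in wild type, with overlap.

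**Figure D4:**
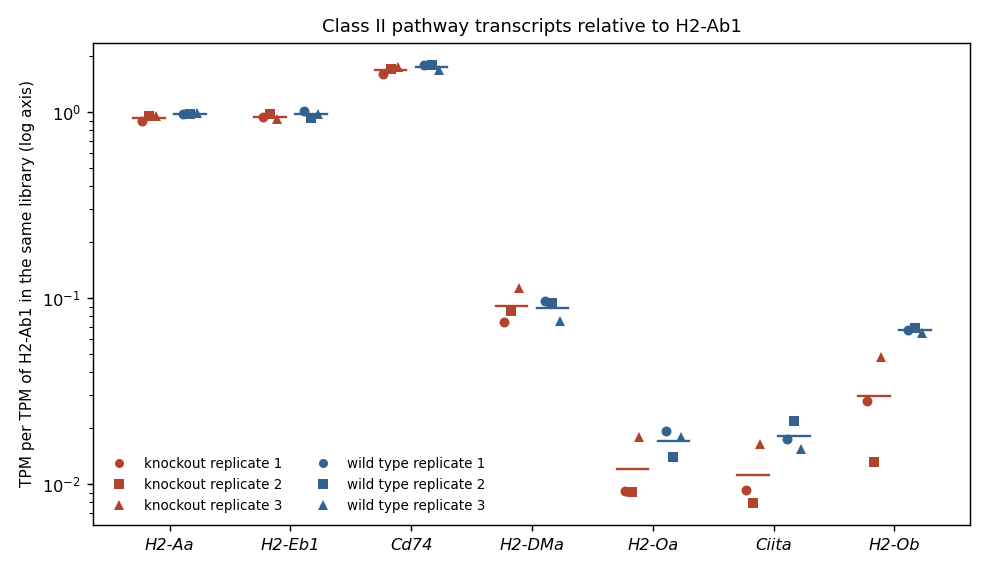
Ratio of class II pathway transcripts to H2-Ab1 in the same library, on a log axis, knockout left of wild type with a symbol per replicate and a line at the mean. H2-Eb1, H2-Aa and Cd74 keep close to a fixed proportion. The H2-Ob ratios do not overlap, from 0.0131 to 0.0483 in knockout and from 0.0654 to 0.0693 in wild type. Those of H2-Aa do not overlap either, by a small gap, from 0.899 to 0.951 in knockout and from 0.980 to 0.987 in wild type.

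H2-DMa, the alpha chain of the peptide exchanger H2-DM, had 7.33, 6.26 and 16.2 TPM in knockout and 9.66, 8.22 and 9.71 TPM in wild type, a log2 fold change of -0.01 with an SE of 0.27. The high value of knockout replicate 3 came in part from a retained-intron transcript at 6.48 TPM there, since its protein-coding transcript had 7.11, 5.45 and 9.75 TPM in knockout and 7.71, 6.81 and 9.22 TPM in wild type. Of the 2 beta chain genes, H2-DMb1 had 6.42, 5.52 and 9.05 TPM in knockout and 7.39, 7.32 and 9.53 TPM in wild type, and H2-DMb2 had 3.52, 2.22 and 7.89 TPM in knockout and 7.89, 5.93 and 8.57 TPM in wild type. Knockout replicates 1 and 2 lay below every wild-type library in both.

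The H2-DMb2 log2 fold change was -0.80 (SE 0.30, limma unadjusted p = 0.0127, adjusted p = 0.774). It was -0.44 without knockout replicate 2 and -1.25 without knockout replicate 3. Part of it came from a gene name. The deposited table counts the retained-intron transcript ENSMUST00000173262 under H2-DMb2, while GENCODE M21 places it at chr17:34155237-34157289, inside H2-DMb1. It had 0.42, 0.17 and 0.20 TPM in knockout and 2.18, 1.54 and 1.52 TPM in wild type. With that transcript under H2-DMb1, the log2 fold changes became -0.54 (limma unadjusted p = 0.0994) for H2-DMb2 and -0.43 (unadjusted p = 0.0790) for H2-DMb1. H2-DMb1 and H2-DMb2 are also similar in sequence, with 34.0% of H2-DMb2 words found in H2-DMb1.

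Markers of B cells had a like order of libraries. All 10 B cell markers tested lay below 0 in log2 fold change (median -0.96, 9 with an unadjusted p below 0.05, where 1.97% of all genes were lower at that level, and 0 past the adjusted threshold), and their summed level was 14.6, 9.09 and 39.6 TPM in knockout and 33.0, 35.7 and 49.6 TPM in wild type. No B cell marker was at 0 in all libraries. With knockout replicate 3 left out 8 of the 10 passed the adjusted threshold (median -1.44), where 1.47% of all genes did. With wild-type replicate 1 left out 4 of the 10 passed (2.15% of all genes), and with knockout replicate 1 left out 1 (1.42% of all genes). None of the 10 passed with knockout replicate 2 left out (median -0.50), or with wild-type replicate 2 or 3 left out. Under median-of-ratios scaling 4 of the 10 had an unadjusted p below 0.05, where 5.74% of all genes were lower at that level. The B cell marker Pax5 met the 1 TPM filter only through wild type, with a mean of 0.53 TPM in knockout. It is among the 9 and among the 4 with an unadjusted p below 0.05, so both counts rest in part on the filter. Ighd, the heavy chain of IgD on naive B cells, had 2.79, 1.61 and 6.20 TPM in knockout and 6.38, 6.89 and 10.7 TPM in wild type. As for H2-Ob, H2-DMb2 and H2-Eb2, knockout replicates 1 and 2 lay below all wild-type libraries and replicate 3 was the highest knockout. The part of B cell content in these differences was not tested.

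Macrophage and dendritic cell markers had 3 positive and 7 negative log2 fold changes among 10 tested of 15 listed (0 past the threshold), a median of -0.04 that was 0.16 without knockout replicate 2 and a summed level of 105 to 160 TPM in knockout and 105 to 161 TPM in wild type. C1qa, a complement subunit made by macrophages, had 32.8, 26.5 and 41.5 TPM in knockout and 34.5, 25.2 and 36.4 TPM in wild type. Batf3, a factor of cross-presenting dendritic cells, had the smallest p of that list, with 1.40, 0.31 and 1.40 TPM in knockout and 2.61, 1.73 and 2.0 TPM in wild type with no overlap (log2 fold change -0.85, limma unadjusted p = 0.0157). T and NK cell markers had a median of -0.31 over 4 tested of 10 listed, with 0 past the threshold. Of the 4, Cd2 (means of 0.89 TPM in knockout and 1.44 TPM in wild type) and Trbc1 (0.95 and 1.38 TPM) met the 1 TPM filter only through wild type. The median therefore rests in part on the filter. Markers of skeletal muscle varied most, with a summed level of 1055 to 2819 TPM in knockout and 177 to 2794 TPM in wild type. All 6 had positive log2 fold changes (median 1.37, 0 past the adjusted threshold). Each had an unadjusted p below 0.05 by limma, where 1.72% of all genes were higher at that level. Under median-of-ratios scaling 1 of the 6, Myh4, had an unadjusted p below 0.05. Of all 14248 genes tested, 798 were higher at that level under this scaling. Myh4 met the 1 TPM filter only through knockout, with means of 3.34 TPM there and 0.26 TPM in wild type. Their median was 0.35 without wild-type replicate 2, with 0 past the threshold, and 2.40 without wild-type replicate 1, with 6 past it; between 3 and 6 passed without any 1 of the other 4 libraries.

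The trans-activators were near the lower limit of the test. Ciita, the master regulator of class II genes, had 0.92, 0.58 and 2.35 TPM in knockout and 1.74, 1.91 and 1.98 TPM in wild type. It was lowest in knockout replicate 2 and highest in knockout replicate 3, as were H2-Ab1, H2-Aa and H2-Eb1, with a log2 fold change of -0.53 (SE 0.33, limma unadjusted p = 0.115). Nlrc5, its counterpart for class I, had 0.67, 0.53 and 1.57 TPM in knockout and 0.995, 1.18 and 1.59 TPM in wild type, a log2 fold change of -0.36 with an SE of 0.33. The group means of Nlrc5 were 0.92 TPM in knockout and 1.26 TPM in wild type, so it met the 1 TPM filter only through wild type. At 1 to 2 TPM on average, small changes in Ciita and Nlrc5 were not detectable.

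Genes that feed the class I and class II pathways gave no call either. Of 12 genes of class I loading and peptide supply, 9 had positive and 3 negative log2 fold changes, the median was 0.05 and 0 passed the threshold. Without knockout replicate 3 they were 6 positive and 6 negative. They include the chaperone Calr, at 373 ± 42.9 TPM in knockout and 369 ± 64.7 TPM in wild type (SD, n = 3 each), and the disulfide isomerase Pdia3, at 288 ± 16.3 and 264 ± 43.0 TPM in knockout and wild type. The interferon-inducible proteasome subunit Psmb8, named after its values were seen, had 47.4, 48.0 and 80.6 TPM in knockout and 48.4, 69.4 and 53.3 TPM in wild type. As for Tap1, which lies beside it in the MHC, knockout replicate 3 was the highest library and wild-type replicate 2 the next.

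All 7 tested genes of the lysosomal and class II loading list, of 11 symbols listed, had positive log2 fold changes (median 0.12), and 0 passed the threshold. This rested on wild-type replicate 2, without which 3 were positive and 4 negative (median -0.04). Ctss, the protease that cuts the invariant chain in antigen-presenting cells, had 377, 353 and 350 TPM in knockout and 337, 280 and 356 TPM in wild type. Cd63, a membrane protein of the lysosome, had 940, 936 and 946 TPM in knockout and 883, 632 and 908 TPM in wild type, so its groups did not overlap (log2 fold change 0.24, limma unadjusted p = 0.227). Wild-type replicate 2 was lowest in both.

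Of 15 tested genes of the class II promoter complex and the interferon-gamma axis, of 16 listed, 12 had positive and 3 negative log2 fold changes, the median was 0.03 and 0 passed the threshold. Without wild-type replicate 2, 5 were positive and 10 negative (median -0.10). Nfyc, a subunit of the Y box factor, had the smallest p, at 31.1, 27.0 and 32.9 TPM in knockout and 35.4, 30.7 and 39.7 TPM in wild type (log2 fold change -0.21, limma unadjusted p = 0.319). Irf1, an interferon-induced factor that acts on class I promoters, had 125, 114 and 176 TPM in knockout and 117, 131 and 155 TPM in wild type. Ifng was at most 0.157 TPM in any library and was not tested. Of MHC-like molecules outside the complex, 7 of 10 were tested, with 4 positive and 3 negative log2 fold changes (median 0.04, 0 past the threshold), and without wild-type replicate 2 there were 1 positive and 6 negative (median -0.11). Fcgrt, the neonatal Fc receptor that carries IgG across epithelium, had 51.6 ± 6.08 TPM in knockout and 48.5 ± 11.4 TPM in wild type (SD, n = 3 each).

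Single transcripts were compared because gene totals can hide a change of isoform. Of 158 member transcripts listed, 155 had values and 70, from 33 genes, had a mean of at least 1 TPM. By limma 0 of the 70 passed an adjusted p of 0.05, where 0.0419% of all 31056 transcripts tested did, and the smallest adjusted p was 0.498. At an unadjusted p below 0.05, 1 was higher and 4 were lower in knockout, against 2.05% higher and 2.97% lower of all transcripts.

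The transcript on the higher side was ENSMUST00000173075 of H2-K1, a protein-coding isoform of 4 exons, with 191, 125 and 199 TPM in knockout and 87.8, 121 and 125 TPM in wild type. Knockout replicates 1 and 3 lay above all wild-type libraries and replicate 2 was level with the highest of them (log2 fold change 0.61, limma unadjusted p = 0.0206). On the lower side, the retained-intron transcript ENSMUST00000173602 of H2-K1 had 3.09, 1.78 and 3.71 TPM in knockout and 5.25, 4.03 and 5.88 TPM in wild type, with no overlap (unadjusted p = 0.0266). The others were ENSMUST00000173262, described above, and the H2-Ob transcripts ENSMUST00000173681 with a retained intron (unadjusted p = 0.0334) and ENSMUST00000095342, its principal coding form (0.85, 0.54 and 2.32 TPM in knockout, 2.12, 2.35 and 2.87 TPM in wild type, unadjusted p = 0.0467). In both H2-Ob transcripts knockout replicates 1 and 2 lay below all wild-type libraries, as in the gene total.

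The main coding transcripts of H2-D1, H2-T23 and H2-Q2 were each higher in all 3 knockout libraries than in any wild-type one. That of H2-D1, ENSMUST00000172785, had 411, 395 and 455 TPM in knockout and 383, 320 and 383 TPM in wild type. That of H2-T23, ENSMUST00000102678, had 184, 181 and 190 TPM in knockout and 155, 139 and 176 TPM in wild type. Their log2 fold changes were 0.22 and 0.25 (limma unadjusted p = 0.201 and 0.148). These were 3 of 70 higher without overlap, and 2 of 70, ENSMUST00000173262 and ENSMUST00000173602, were lower without overlap. Of all transcripts tested, 4.23% were higher and 3.96% lower in this way, so both counts are near the background. Wild-type replicate 2 was the lowest library for the transcripts of H2-D1, H2-T23 and H2-Q2. ENSMUST00000173262 met the 1 TPM filter only through wild type, with means of 0.26 TPM in knockout and 1.75 TPM in wild type.

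A single transcript annotated with a retained intron held the largest part of some members, 78.8% of H2-Q5, 73.9% of Tap2, 63.3% of H2-Q1 and 56.4% of H2-Ob. Of 24 such member transcripts tested, 20 (83.3%) lay below 0, and their median log2 fold change was -0.38. Over all 4803 retained-intron transcripts tested the share was 83.0% and the median -0.34, so the members' share was near that background. Of 41 protein-coding member transcripts, 22 (53.7%) were negative with a median of -0.01, beside 40.1% and 0.05 over all 20977 protein-coding transcripts tested. Without knockout replicate 2 the retained-intron medians were -0.09 for members and -0.10 for all.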

How the data were processed

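RNA of whole colon was extracted with a PureLink kit and made into SMARTer low-input libraries, per the labels' protocols, and paired-end reads of 50 bases (30 M per sample on average by the series' design text) were quantified with kallisto 0.43.1 and sleuth on mm10, per the submitters' processing notes. The deposited table holds TPM made by the authors, 1 value per transcript and library. No counts or depths were used, so no counting interval is given. Of 132639 lines, 1433 repeat a transcript and were used once; 43008 of 131206 transcripts have no value and 1380 no gene name. TPM was summed per gene name, features with a mean of at least 1 TPM were kept, and log2(TPM + 0.5) was tested with limma 3.58.1 (R 4.3.3, trend on) on 3 knockout against 3 wild-type mice with Benjamini-Hochberg adjustment over all features; the steps were tested on simulated data. An exact permutation test of 3 against 3 cannot go below p = 0.1 and was not used. Members, classes and gene lists were chosen with earlier results of these data known. Genes are named if their mean is at least 1 TPM or 1 library exceeds 1 TPM; of each list the 2 smallest p-values and the 2 highest means could be named, and of transcripts those with an unadjusted p below 0.05 or the largest part of a named gene. Alternatives were other pseudocounts, filters, scalings, a replicate block, a looser threshold and each library left out; gene names from GENCODE M21 were added after the data were seen. Sequence overlap was counted in GENCODE M21 transcripts as shared words of 31 bases. Lists of T and NK cells, epithelium, endothelium, skeletal and smooth muscle served as markers.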

Additional observations from a re-analysis of the deposited data

How the results depend on the processing

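For genes, 38 passed the threshold by limma as deposited, 24 with a pseudocount of 0.1, 2 with no filter, 142 at a mean of at least 5 TPM, 6 after median-of-ratios scaling, 4 after rescaling over transcripts with a gene, 71 with the replicate block, and 19 to 307 with single libraries left out. For transcripts, 13 passed, with 7, 1 and 23 at the same pseudocount and filters, 1 with the replicate block, 28 at an adjusted p below 0.1 and 1 to 57 with single libraries left out. Members past the threshold were 0, but 1 at a mean of at least 5 TPM (H2-Ob, adjusted p = 0.00754) and 0 to 2 with single libraries left out: H2-Ob without knockout replicate 1 (adjusted p = 0.0245) or wild-type replicate 1 (adjusted p = 0.00572), and H2-Ob and H2-DMb2 (log2 fold change -1.25) without knockout replicate 3. The cause of these changed counts was not tested. H2-Ob met the 5 TPM filter only through wild type, with a mean of 7.04 TPM there and 3.53 TPM in knockout. Its call under that filter is therefore no separate support. Of 35 tested members 20 kept their sign in every fit. Under rescaling, H2-Ke6 became -0.03, H2-M3 -0.10, H2-Q2 -0.0594, H2-T-ps -0.0437 and H2-T22 -0.0098, with the median of all genes at -0.10, and H2-M3 became -0.0048 after median-of-ratios scaling. With single libraries left out, log2 fold changes ran from -0.37 to 0.12 for Cd74, -0.37 to 0.10 for H2-Aa, -0.28 to 0.19 for H2-Ab1, -0.30 to 0.13 for H2-Eb1, -0.41 to 0.24 for H2-DMa, -0.36 to 0.0261 for H2-Bl, -0.37 to 0.10 for H2-K2, -0.12 to 0.23 for H2-Ke6, -0.11 to 0.14 for H2-M3, -0.12 to 0.10 for H2-Q4, -0.48 to 0.0013 for H2-Q6, -0.11 to 0.27 for H2-T-ps, -0.0257 to 0.20 for H2-T22 and -0.47 to 0.28 for Tap1. Without wild-type replicate 2 the median of all genes was -0.13. The labels do not say whether the replicate numbers pair mice. Same-numbered deviations correlated at 0.05, 0.13 and 0.18. Knockout replicates 2 and 3 correlated best with the wild-type library of the same number, and knockout replicate 1 with wild-type replicate 3 (0.098). The replicate block left 0 members past the threshold. At 5 TPM, low members have no value. The limma p-values combine the spread between 3 mice a group with a spread borrowed from all genes of like level. They can therefore be smaller or larger than the mice of a single gene alone would give. The read depth behind TPM is unknown.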

Other observations

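Other marker lists were checked for the cells a whole colon holds. Of 12 epithelial markers, 11 had positive log2 fold changes (median 0.20) and 0 passed the adjusted threshold. Without wild-type replicate 2, 8 were positive and 4 negative (median 0.07), and 1 passed without knockout replicate 2 or without wild-type replicate 1. Cdx2, an intestinal transcription factor, had 16.7, 12.8 and 18.8 TPM in knockout and 9.65, 6.08 and 9.92 TPM in wild type, with no overlap between the groups (limma log2 fold change 0.89, unadjusted p = 0.000892). Endothelial and smooth muscle lists had medians of -0.05 and -0.07 over 6 genes each, with 0 past the threshold, and both medians were positive without knockout replicate 2 (0.14 and 0.0061) or without wild-type replicate 1 (0.10 and 0.04).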
